A study of Mus musculus with 28 samples.

Results

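The genes described here are Mir155hg and 7 other long noncoding RNAs of retinal microglia, the resident macrophages of the retina: the microRNA host genes Mir142hg, Mir22hg and Mir17hg, the nuclear RNAs Neat1 and Malat1, and 2 transcripts known only by annotation names, Gm29291 and Gm15523. They were taken by symbol from a table of 40021 genes, which held 8 of the 8 symbols, and all 8 passed a filter that asked for an RPKM (reads scaled to transcript length and to the number of mapped reads) of at least 1 in at least 5 retinas and left 13164 genes. Mir155hg, Gm29291 and Gm15523 had been selected on the size of their change from naïve at 4 h or 18 h in these same retinas, so their values at those times are given as a description without a p-value.

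Each sample was the microglia of 1 retina of a male, heterozygous Cx3cr1CreER:R26-tdTomato mouse on the C57BL/6 background. In this strain the Cx3cr1 promoter drives a Cre recombinase that tamoxifen activates, here given to the eye, and recombined cells carry the red reporter tdTomato. Cre of this kind can recombine some cells without tamoxifen, and Cx3cr1 is also used by some blood monocytes, which limits the label as a marker of microglia. Bright, viable cells were sorted from 10 naïve retinas and from eyes with endotoxin-induced uveitis (EIU), an acute inflammation started by lipopolysaccharide (LPS) injected into the vitreous, with 6 retinas taken at 4 h, 5 retinas at 18 h and 7 retinas after 2 weeks. The strain, its heterozygous state and the tamoxifen were common to the 4 groups as the study describes them. No group was injected without LPS, so in differences from naïve retinas LPS cannot be told apart from the injection itself. The retinas came from 2 experiments, with 6, 3, 4 and 4 retinas of the 4 groups in experiment 1 and 4, 3, 1 and 3 in experiment 2. The labels give the side of the eye but not which retinas came from the same mouse, so every p-value measures the spread between retinas.

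A microRNA is a short RNA cut from a hairpin in a longer primary transcript. Its bases 2 to 8, the seed, pair with sites in messenger RNAs, which are then translated less or degraded. Mir155hg, Mir142hg, Mir22hg and Mir17hg are such primary transcripts. miR-155 is known in macrophages as a microRNA induced by Toll-like receptor signalling, miR-142 as one typical of blood-derived cells, the miR-17-92 cluster for its link to growth and Myc, and miR-22 as a microRNA of many tissues. Malat1 and Neat1 stay in the nucleus, Malat1 at splicing speckles and Neat1 as the scaffold of paraspeckles. The libraries were made from polyadenylated RNA and hold host transcripts, not the mature microRNAs, whose levels were not measured.

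The mature microRNAs encoded in the 4 host genes show what each primary transcript can yield. They are RefSeq sequences on GRCm38, written 5′ to 3′ with the seed in capitals.
miR-155-5p: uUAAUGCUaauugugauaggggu
miR-155-3p: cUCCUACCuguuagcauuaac
miR-142a-5p: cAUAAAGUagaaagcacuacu
miR-142a-3p: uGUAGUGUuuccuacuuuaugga
miR-22-3p: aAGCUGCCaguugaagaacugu
miR-17-5p: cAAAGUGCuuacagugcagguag
miR-20a-5p: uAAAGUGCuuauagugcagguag
miR-18a-5p: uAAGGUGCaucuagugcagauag
miR-19a-3p: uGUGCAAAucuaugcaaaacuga
miR-19b-3p: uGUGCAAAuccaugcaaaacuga
miR-92a-3p: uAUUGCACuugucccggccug

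Within the cluster of Mir17hg, miR-17-5p and miR-20a-5p share the seed AAAGUGC, and miR-19a-3p and miR-19b-3p share the seed GUGCAAA. Among the 1679 mature mouse microRNAs in the RefSeq table, 7 have the seed of miR-17-5p and 6 that of miR-92a-3p, while the seeds of miR-155-5p, miR-142a-5p, miR-142a-3p and miR-22-3p each belong to 1 microRNA. The hairpin of miR-155 is printed because it is the part of Mir155hg that is processed, with both mature arms in capitals.
miR-155 hairpin: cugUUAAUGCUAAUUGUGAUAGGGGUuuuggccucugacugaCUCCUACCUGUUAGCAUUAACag

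In GENCODE's annotation of GRCm38, Mir155hg is a long intergenic noncoding RNA on the plus strand at chr16:84703167-84715245 with 2 annotated transcripts. The 65-base hairpin at chr16:84714140-84714204 lies in an exon of both. Mir22hg (chr11:75461539-75466676) and Mir17hg (chr14:115042879-115046727) also carry their hairpins in exons, in 2 of 2 and 1 of 1 transcripts. In Mir142hg (chr11:87755577-87757270) the hairpin lies in the intron of the single annotated transcript, whose spliced length is 269 bases, so the reads counted for that gene do not cover the microRNA itself.

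Mir155hg was near absence in naïve retinas and among the most abundant noncoding RNAs 4 h after the LPS injection. Its RPKM was listed at 0 in 7 of the 10 naïve retinas and at 0.078, 0.728 and 0.982 in the other 3. An exact 0 is not proof of absence in this table, since 19 of the 1000 genes with the highest median were also listed at 0 in at least 1 retina. At 4 h the 6 retinas had RPKM of 330, 524, 535, 570, 1524 and 1826. The lowest of these was 336 times the highest naïve value. By median level Mir155hg was then the 70th of 13162 genes and the 3rd of 1325 annotated long noncoding RNAs, against the 1281st of those in naïve retinas. The difference in log2(RPKM + 1) was 9.32 with a standard error (SE) of 0.47.

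At 18 h Mir155hg was at 12.3, 16.7, 27.7, 30.2 and 45.2 RPKM, below every 4 h retina and above every naïve one. The lowest 4 h value was 7.30 times the highest 18 h value, and the lowest 18 h value was 12.5 times the highest naïve value. The log2 difference from naïve was 4.46 (SE 0.50), and that between 4 h and 18 h was 4.86 (SE 0.55). For comparison, 1.65% of the genes tested had every 4 h retina above every naïve one, 2.05% every 18 h retina above every naïve one, and 2.79% every 4 h retina above every 18 h one, but nothing is read from these shares for a gene selected on this change.

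At 2 weeks Mir155hg was listed at 0 in 1 retina and stood at 0.141, 1.10, 2.07, 4.79, 9.52 and 10.8 RPKM in the other 6. A total of 5 of the 7 retinas were above the highest naïve retina, a count that 0.152% of the genes tested reached or passed. The 2 groups overlapped, and the highest 2-week value was below the lowest value at 18 h. The log2 difference from naïve was 1.58 (SE 0.45), the 14th highest of 13164, with p = 0.0014 before adjustment and an adjusted p = 1.0 in limma, so it did not pass the test. The difference was 1.55 within experiment 1 and 1.58 within experiment 2. The naïve retinas in this comparison are the ones against which Mir155hg was selected.

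In the 4 h group the 3 retinas of experiment 1 (570, 1524 and 1826 RPKM) were all above the 3 of experiment 2 (330, 524 and 535 RPKM). The 4 h difference from naïve was 10.17 on the log2 scale within experiment 1 and 8.38 within experiment 2. The gap between them, fitted as the interaction of time and experiment, was -1.79 (SE 0.92). Both values use the change on which the gene was selected, so no p-value is given for the gap.

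**Figure D1:**
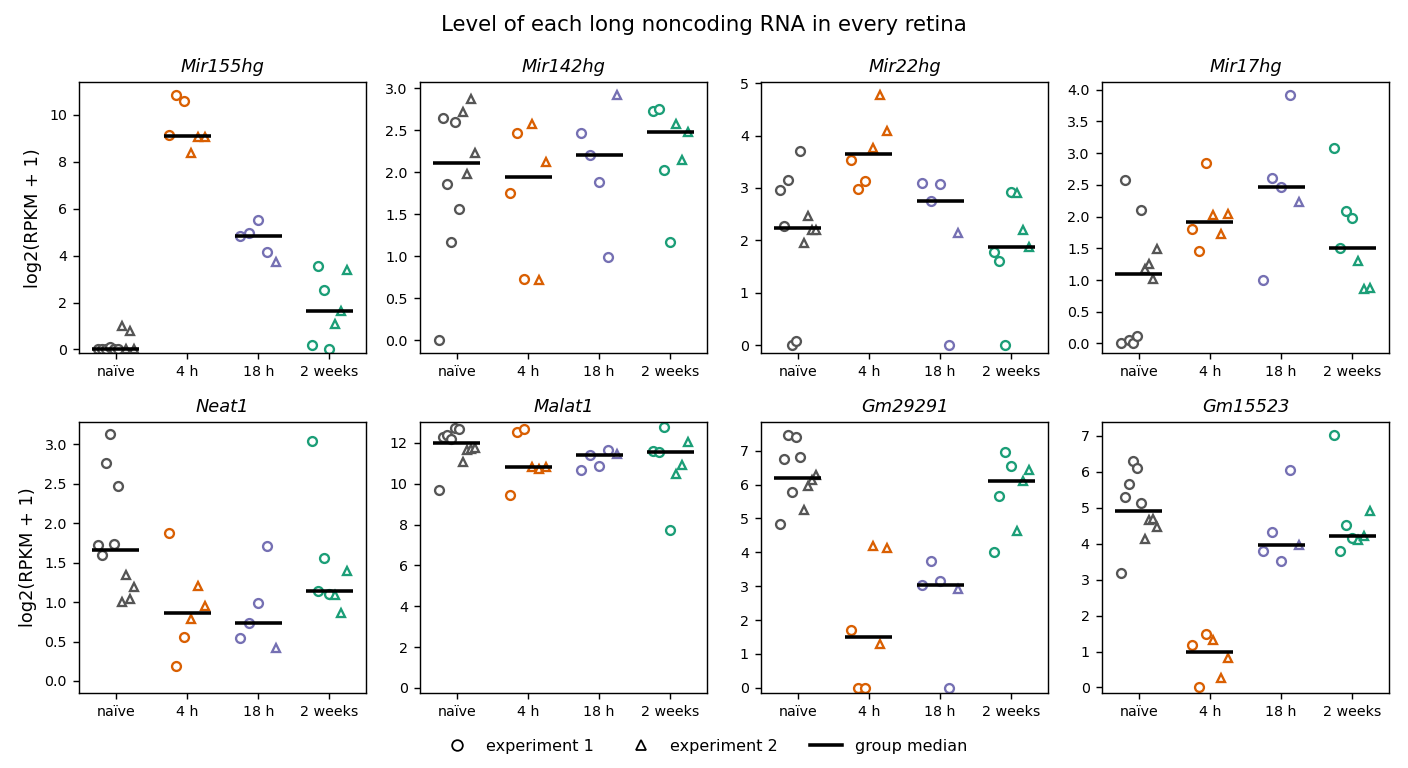
Level of the 8 long noncoding RNAs as log2(RPKM + 1), 1 panel a gene and 1 point a retina, with circles for experiment 1, triangles for experiment 2 and a bar at the group median. Mir155hg at 4 h and 18 h lay above all naïve retinas, Gm29291 at 4 h and 18 h and Gm15523 at 4 h lay below them, and the groups of the other 5 genes overlapped at every time.

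Messenger RNAs known as targets of miR-155 were looked at as a list of 16, all of which passed the filter. At 4 h 4 of them were called higher and 3 lower than in naïve retinas. A gene was called if limma's adjusted p did not exceed 0.05 and its level changed by 2 times or more. In the same comparison 3.68% of all genes tested were called higher and 4.39% lower. The median log2 difference of the list was 0.20, against -0.11 over all genes. At 18 h 1 was called higher and 1 lower, with a median of -0.26 against -0.076, and 2.84% and 1.85% of all genes were called in these directions. At 2 weeks none of the 16 was called. The balance of calls over all genes depended on the scaling. With every retina rescaled to the same summed RPKM, the calls went from 485 higher and 578 lower to 410 and 1002 at 4 h, and from 374 and 244 to 226 and 471 at 18 h. Among the 16 targets the rescaled values gave 4 higher and 4 lower at 4 h, with Csf1r added, and 1 higher and 2 lower at 18 h, with Ets1 added.

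The targets that rose at 4 h were Cebpb, a transcription factor of inflammatory macrophages (log2 difference 2.94, SE 0.69, adjusted p = 0.0046), Socs1, an inhibitor of cytokine signalling (1.73, SE 0.46, adjusted p = 0.013), Bach1, a repressor of haem and antioxidant genes (1.61, SE 0.42, adjusted p = 0.012), and Ikbke, a kinase of the interferon response (1.52, SE 0.27, adjusted p = 0.00025). Those that fell were Maf, a macrophage transcription factor (-3.38, SE 0.40, adjusted p = 3.1e-07), Inpp5d, which encodes the phosphatase SHIP1 (-1.59, SE 0.44, adjusted p = 0.017), and Ets1 (-1.41, SE 0.36, adjusted p = 0.0091). Socs1 and Ikbke were low, with medians of 0.46 and 0 RPKM in naïve retinas and 2.83 and 2.02 at 4 h. The median of Cebpb was 32.0 RPKM in naïve retinas and 261.8 RPKM at 4 h, then 95.1 at 18 h and 49.25 after 2 weeks. Maf went from 31.9 to 2.63 and back to 17.8 and 32.1 RPKM, and no 4 h retina (highest 4.05) reached the lowest naïve one (18.7). Every 4 h retina was below every naïve one for 1.41% of the genes tested.

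Bach1 differed between the 2 inflamed times. Its medians were 4.12 RPKM in naïve retinas, 20.4 at 4 h and 1.52 at 18 h, and every 4 h retina (lowest 4.86) was above every 18 h retina (highest 4.01). The same held for 2.79% of the genes tested. The log2 difference between 4 h and 18 h was 2.63 (SE 0.50, adjusted p = 0.00074 in limma). Maf was the other target called between these times, at -2.53 (SE 0.47, adjusted p = 0.00066). Over all genes 2.51% were called higher at 4 h than at 18 h and 2.92% lower. Without the 4 retinas that had fewer than 8000 detected genes, an alternative added after the data were seen, 4 targets were again called higher and 3 lower at 4 h, and 1 higher and 2 lower at 18 h, with Ets1 (-1.15, adjusted p = 0.031 in limma) added. At 18 h Ikbke stayed above naïve (1.20, SE 0.29, adjusted p = 0.011), and Csf1r, the receptor that microglia need to survive, was lower (-1.88, SE 0.33, adjusted p = 0.00047). The 18 h values of Ikbke were low, from 0.117 to 2.89 RPKM.

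A match to the miR-155-5p seed (AGCATTA) was searched in the longest annotated 3′ untranslated region (3′ UTR) of each gene. It was present in 12 of the 16 listed targets and in 9.61% of the 10642 tested genes with an annotated 3′ UTR. Bach1 and Jarid2 had 2 matches each, and Maf, Fadd, Rheb and Smad2 had none in that region. Csf1r, called at 18 h, held 1 match. The sites of the targets called at 4 h are given with the match in capitals, on the strand of the gene and with GRCm38 coordinates.
Socs1, chr16:10784206-10784229, minus strand: gctgccgctgtgccgcAGCATTAa
Inpp5d, chr1:87719822-87719845, plus strand: tgagatgtttttaaaaAGCATTAa
Cebpb, chr2:167690350-167690373, plus strand: aaccttttccgtttcgAGCATTAa
Bach1, chr16:87732172-87732195, plus strand: tctctatgaacagtttAGCATTAa
Bach1, chr16:87732384-87732407, plus strand: tagaaatatattgcatAGCATTAt
Ikbke, chr1:131255152-131255175, minus strand: cattggccaacaaactAGCATTAc
Ets1, chr9:32757192-32757215, plus strand: gcactctgggttttaaAGCATTAa

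Of the targets called at 4 h that hold a site, Cebpb, Socs1, Bach1 and Ikbke rose at 4 h and Inpp5d and Ets1 fell. Over all 1023 tested genes with a match, 3.13% were called higher and 6.65% lower at 4 h, against 3.90% and 4.22% of the 9619 without one. The median log2 difference at 4 h was -0.18 with a match and -0.084 without. At 18 h 1.37% with a match were called higher and 2.54% lower, against 2.94% and 1.77%, with medians of -0.24 and -0.046. Genes with a match also had longer 3′ UTRs, with a median of 2788 bases against 1172, and the part of UTR length in these shares was not tested.

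**Figure D2:**
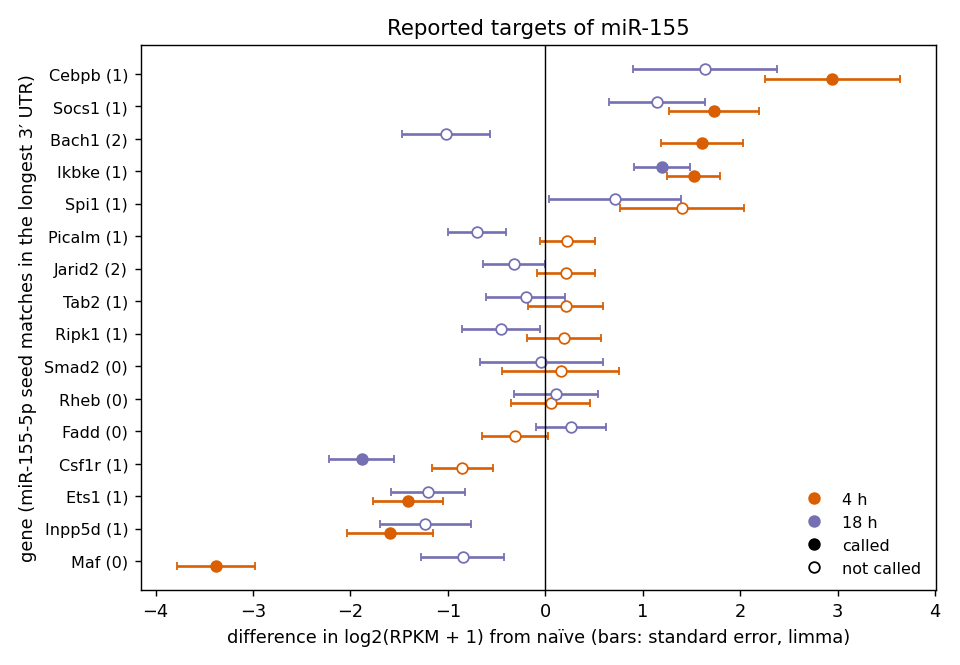
Difference in log2(RPKM + 1) from naïve retinas at 4 h (orange) and 18 h (violet) for 16 reported targets of miR-155, with bars for the SE from limma, filled points for genes called, and the number of seed matches in the longest 3′ UTR after each name. Cebpb, Socs1, Bach1 and Ikbke lie to the right of 0 at 4 h and Ets1, Inpp5d and Maf to the left.

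Mir22hg had a higher median at 4 h than in naïve retinas, but the difference did not pass the test. Naïve retinas ranged from 0 to 12.03 RPKM with a median of 3.73, and the 6 retinas at 4 h had 6.89, 7.74, 10.6, 12.7, 16.05 and 26.4 RPKM. All 6 were above the naïve median and 3 were above every naïve retina, counts whose share over all genes was not determined. The log2 difference was 1.62 (SE 0.54, adjusted p = 0.057 in limma). At 18 h the 5 retinas had 0, 3.41, 5.76, 7.47 and 7.55 RPKM (log2 difference 0.12, SE 0.57), and at 2 weeks the range was 0 to 6.57 RPKM with a median of 2.64 (-0.20, SE 0.51). The difference between 4 h and 18 h was 1.5 (SE 0.63, adjusted p = 0.20 in limma).

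The 4 h difference of Mir22hg sat close to the threshold. The adjusted p for 4 h was 0.029 without the 4 retinas of fewer than 8000 detected genes (log2 difference 1.48), and leaving out naïve replicate 1, 3 or 6, 18 h replicate 4 or 2-week replicate 3 gave 0.044, 0.041, 0.030, 0.032 and 0.043. Over all 28 fits that left out 1 retina the adjusted p in limma ran from 0.030 to 0.16. In experiment 2 the naïve retinas lay between 2.88 and 4.52 RPKM and the 4 h retinas between 12.7 and 26.4 RPKM, without overlap. How many of all genes had no overlap there was not determined. The log2 difference of 2.01 passed within that experiment (adjusted p = 0.0017 in limma). In experiment 1 the naïve retinas spread from 0 to 12.03 RPKM around 6.89 to 10.6 RPKM at 4 h, and the difference of 1.19 did not pass (adjusted p = 0.65). Mir22hg shares 206 exonic bases with Tlcd2 on the same strand, whose reads cannot be fully told apart from its own. Tlcd2 medians were 2.60 RPKM in naïve retinas and 1.399 at 4 h (log2 difference -0.35, adjusted p = 0.80).

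Mir17hg was low throughout, and its highest median came at 18 h. The 5 retinas at 18 h had 1.00, 3.68, 4.50, 5.09 and 14.1 RPKM, against a naïve median of 1.13 and a naïve range of 0 to 4.94 RPKM. The log2 difference was 1.47 (SE 0.46, adjusted p = 0.060 in limma), which missed the threshold, with 1.69 in experiment 1 and 1.00 in experiment 2, where 18 h is a single retina. It passed when naïve replicate 2 or 6, 18 h replicate 1 or 2-week replicate 1 was left out (adjusted p = 0.026, 0.040, 0.025 and 0.039 in limma). Over all 28 fits that left out 1 retina the adjusted p ran from 0.025 to 0.20. The value of 14.1 RPKM was in 18 h replicate 4, which had fewer than 8000 detected genes. Without the 4 such retinas the 18 h difference was 0.86 (adjusted p = 0.24 in limma). At 4 h the range was 1.74 to 6.23 RPKM with a median of 2.78 (1.01, SE 0.43, adjusted p = 0.17), and at 2 weeks 0.811 to 7.46 RPKM with a median of 1.85 (0.69, SE 0.41, adjusted p = 1.0). Groups overlapped at every time.

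The ranges of Mir142hg were 0 to 6.33 RPKM in naïve retinas, 0.642 to 4.95 at 4 h, then 0.982 to 6.58 at 18 h and 1.25 to 5.74 after 2 weeks, with medians of 3.32, 2.87, 3.63 and 4.58 RPKM. The log2 differences from naïve were -0.24 (SE 0.41, adjusted p = 0.81 in limma), 0.13 (SE 0.44, adjusted p = 0.92) and 0.31 (SE 0.39, adjusted p = 1.0). The groups overlapped at every time, and SEs of this size do not show that the gene was constant.

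Of the other microRNA host genes, 5 passed the filter and 2 were called. Over all genes tested, 4.39% were called lower at 4 h and 1.85% lower at 18 h. Dleu2, which holds miR-15a and miR-16-1, fell at 4 h (log2 difference -2.17, SE 0.47, adjusted p = 0.0020), from a median of 13.1 RPKM to 3.03, with no 4 h retina (highest 6.28) reaching the lowest naïve one (6.68). Such a lack of overlap was found in 1.41% of the genes tested. Mir124-2hg, a host of the neuronal microRNA miR-124, was lower at 18 h than in naïve retinas (-1.62, SE 0.39, adjusted p = 0.010), with medians of 5.67 and 18.6 RPKM. It was also higher at 4 h than at 18 h (1.83, SE 0.43, adjusted p = 0.0083 in limma), where 2.51% of all genes were called higher. The summed level of 7 rod photoreceptor markers had a median of 2877 RPKM in naïve retinas and 1864 at 18 h, with 3504 and 3414 in the 4 h and 2-week groups, and its part in the level of Mir124-2hg was not tested. Mir99ahg, Mir124a-1hg and Mir670hg were not called in any comparison of all retinas.

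A list of genes that process microRNAs or load them on Argonaute was also counted. Of 17 tested, 1 rose and 1 fell at 4 h, where 3.68% of all genes were called higher and 4.39% lower, and none was called at 18 h or 2 weeks. Zc3h12a, an endoribonuclease that degrades cytokine messenger RNAs and microRNA precursors, rose from a median of 0.802 RPKM to 7.27 at 4 h (log2 difference 2.21, SE 0.45, adjusted p = 0.0011) and was at 0.690 RPKM at 18 h. Ddx17, a helicase of the nuclear microRNA processor, fell from 13.2 to 3.62 RPKM (-1.56, SE 0.34, adjusted p = 0.0023). The median of the list was -0.40 at 4 h and -0.35 at 18 h. Dicer1, which cuts the hairpins, stood at -0.40 (SE 0.27, adjusted p = 0.44) at 4 h. The counts depended on the retinas and the scaling used. Without the 4 retinas of few detected genes, Ddx17 and Prkra, a partner of Dicer, were lower at 4 h (-1.43 and -1.30, adjusted p = 0.0015 and 0.0064 in limma), and Ddx17 and Tnrc6b, which encodes a partner of Argonaute, at 18 h (-1.31 and -1.08, adjusted p = 0.017 and 0.0052). With rescaling to equal summed RPKM 2 were lower at 4 h, Ddx17 and Tnrc6b, and 4 at 18 h, Ddx17, Ddx5, Tnrc6b and Tnrc6c. Zc3h12a was called higher at 4 h in both alternatives.

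Malat1 was by far the most abundant of the 8, the 7th gene of 13162 by median in naïve retinas. Its naïve retinas ranged from 834.5 to 6693 RPKM with a median of 4087. At 4 h the 6 retinas had 689, 1709, 1782, 1806, 5892 and 6536 RPKM, at 18 h the 5 had 1653, 1847, 2725, 2827 and 3164 RPKM, and at 2 weeks the range was 211.9 to 6938 RPKM with a median of 3003. All groups overlapped. The log2 differences from naïve were -0.65 (SE 0.53, adjusted p = 0.54 in limma), -0.60 (SE 0.57, adjusted p = 0.64) and -0.80 (SE 0.51, adjusted p = 1.0).

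Much of the spread of Malat1 was within groups. In experiment 2 the 3 retinas at 4 h (1709 to 1806 RPKM) were below all 4 naïve ones (2149 to 3450 RPKM), a log2 difference of -0.76 (adjusted p = 0.15 in limma), and in experiment 1 the difference was -0.45 with overlap. The share of all genes without overlap in experiment 2 was not determined. The lowest Malat1 value of the naïve, 4 h and 2-week groups, 834.5, 689 and 211.9 RPKM, was in each case that of the retina with the lowest share of RPKM from mitochondrially encoded genes of its group, 0.71%, 0.757% and 1.55%. The ranges over each group were 0.71% to 5.78%, 0.757% to 4.79% and 1.55% to 6.85%. At 18 h the 2 did not fall together, since the lowest Malat1 value, 1653 RPKM, was in replicate 1 with a share of 1.81%, and the lowest share, 1.79%, was in replicate 2 with 2725 RPKM. The part of this share in the level of Malat1 was not tested.

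The annotation places a second gene, Gm37376, inside Malat1 on the opposite strand, at chr19:5801941-5802393, and all of its 453 bases are exonic in Malat1 (chr19:5795690-5802672, minus strand). The library kit does not mark strand, so reads from there cannot be assigned to one of the 2 genes with certainty. Gm37376 was listed at higher RPKM than Malat1 in every retina, by 3.30 to 7.95 times with a median of 5.73. Its medians were 22590, 13650, 15750 and 16080 RPKM in naïve, 4 h, 18 h and 2-week retinas. Over the 28 retinas the log2 values of the 2 genes had r = 0.975, the highest of any gene with Malat1. The level of Malat1 given here is that of the table, and how many of its reads were counted under the other name was not tested.

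**Figure D3:**
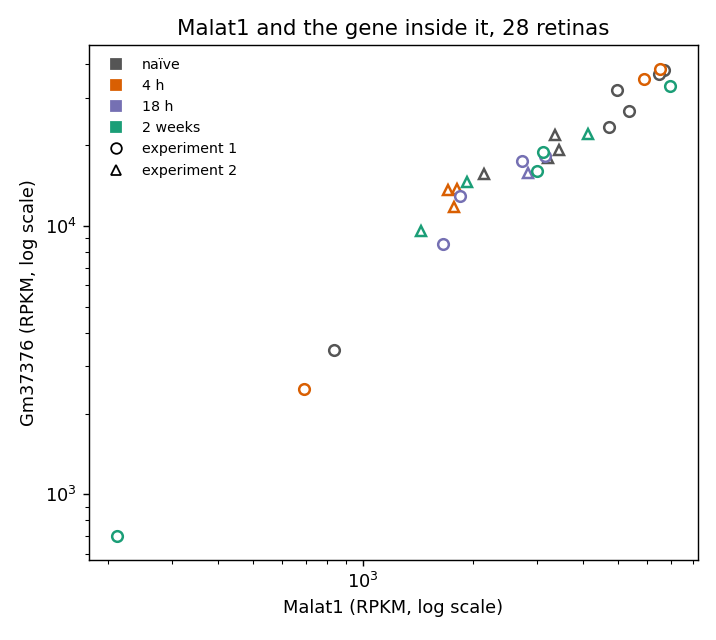
RPKM of Malat1 and of Gm37376, the gene annotated inside it, in each of the 28 retinas on log axes, with colours for the groups and circles and triangles for experiments 1 and 2. The points lie along one line from 211.9 RPKM of Malat1 and 698.4 RPKM of Gm37376 up to 6938 RPKM of Malat1, and the groups are mixed along it.

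Neat1 lies on the same strand 22036 bases from Malat1 (chr19:5824708-5845478) and had a far lower RPKM in these poly(A)-primed libraries. Its 4 annotated transcripts run from 711 to 20771 bases. The part of transcript length and of poly(A) priming in its RPKM was not tested. Naïve retinas ranged from 0.998 to 7.77 RPKM with a median of 2.16. The 6 retinas at 4 h had 0.138, 0.468, 0.731, 0.924, 1.31 and 2.67 RPKM, and the 5 at 18 h had 0.337, 0.457, 0.658, 0.981 and 2.27 RPKM. At 4 h 4 of 6 and at 18 h 4 of 5 were below every naïve retina. The share of all genes with such counts was not determined, so nothing is read from them. The log2 differences were -0.87 (SE 0.36, adjusted p = 0.15 in limma) and -0.92 (SE 0.38, adjusted p = 0.19), neither of which passed. At 2 weeks the range was 0.813 to 7.21 RPKM with a median of 1.21 (-0.34, SE 0.35, adjusted p = 1.0).

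The naïve retinas of the 2 experiments did not overlap in Neat1. Those of experiment 1 had 2.03 to 7.77 RPKM and those of experiment 2 had 0.998 to 1.54 RPKM, a log2 difference of -1.10 (SE 0.42, p = 0.014, adjusted p = 0.14 in limma), and 1.78% of all genes tested were called between these groups. Neat1 was not among those called, and the share of genes without overlap between these groups was not determined. At 4 h the difference from naïve was -1.36 within experiment 1 and -0.16 within experiment 2, and at 18 h -1.24 and -0.72. For Malat1 the naïve difference between experiments was -0.44 (SE 0.70, adjusted p = 0.75). In the list of 18 genes of paraspeckle and speckle proteins, 1 was called higher and 1 lower at 4 h, against 3.68% and 4.39% of all genes, and none at 18 h or 2 weeks. The splicing factor genes Srsf7 (1.16, SE 0.28, adjusted p = 0.0066, not called without the 4 retinas of few detected genes or with rescaling to equal summed RPKM) and Srsf1 (-1.27, SE 0.41, adjusted p = 0.049) were those called at 4 h, and Srsf5 was higher at 4 h than at 18 h (1.13, SE 0.34, adjusted p = 0.044).

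Gm29291 is a long intergenic noncoding RNA on the minus strand at chr1:154003396-154006221. In naïve retinas it was abundant, the 8th of 1325 annotated long noncoding RNAs, with 27.6 to 176.2 RPKM and a median of 72.5. At 4 h the 6 retinas had 0, 0, 1.44, 2.28, 16.4 and 17.0 RPKM, and at 18 h the 5 had 0, 6.62, 7.19, 7.98 and 12.4 RPKM. All 11 were below every naïve retina, and the lowest naïve value was 1.62 times the highest at 4 h and 2.22 times the highest at 18 h. The log2 differences were -4.39 (SE 0.62), the lowest of all 13164 genes, and -3.69 (SE 0.66). Every 4 h retina was below every naïve one for 1.41% of the genes tested and every 18 h retina for 1.3%, shares from which nothing is read for a gene selected on this change.

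At 2 weeks Gm29291 was at 15.2, 23.5, 49.2, 68.6, 85.1, 92.4 and 123.1 RPKM, 2 of 7 retinas below the naïve range and the median of 68.6 close to the naïve one. The log2 difference was -0.51 (SE 0.59, adjusted p = 1.0 in limma). The fall at 4 h was -5.94 within experiment 1 and -2.71 within experiment 2, and the gap fitted as the interaction was 3.23 (SE 1.16). These values are given without a p-value for the same reason as for Mir155hg. The values of 0 were in experiment 1, and the 2 highest 4 h values, 16.4 and 17.0 RPKM, in experiment 2.

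The nearest annotated gene on one side of Gm29291 is another long intergenic noncoding RNA on the same strand, Gm28286, at a distance of 21142 bases (chr1:154027363-154034301). It fell at both times as well, by 2.16 at 4 h (adjusted p = 0.021 in limma) and by 2.56 at 18 h (adjusted p = 0.016) on the log2 scale. Its naïve retinas ranged from 0.653 to 48.5 RPKM with a median of 5.36, it was listed at 0 in 4 of 6 retinas at 4 h and 3 of 5 at 18 h, and its 2-week median was 4.21 RPKM. On the other side lies Glul, glutamine synthetase, 93673 bases away, with medians of 100.9, 61.0, 39.6 and 95.2 RPKM in naïve, 4 h, 18 h and 2-week retinas (log2 difference at 18 h -1.09, adjusted p = 0.042). Glul is also a marker of Müller glia, whose 5 listed markers summed to a median of 132.7 RPKM in naïve retinas and 50.7 at 18 h. That sum includes Glul itself, so it is no separate measure of these cells, and their part was not tested.

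Gm15523 is annotated on the plus strand at chr12:103336906-103348057, antisense to Asb2. The 10 naïve retinas ranged from 8.15 to 78.0 RPKM with a median of 29.4. At 4 h the 6 retinas were at 0, 0.197, 0.767, 1.25, 1.52 and 1.83 RPKM, all below the naïve range, and the lowest naïve value was 4.46 times the highest at 4 h. Such a pattern held for 1.41% of the genes tested, from which nothing is read for a gene selected on this change. The log2 difference was -4.12 (SE 0.47). At 18 h the 5 retinas had 10.4, 12.8, 14.7, 18.99 and 65.8 RPKM, all inside the naïve range (-0.63, SE 0.50). Gm15523 and Gm29291 thus differed at 18 h: every retina lay inside the naïve range for the one and none for the other. For Gm15523 the lower end of that range was 1 retina, naïve replicate 1, and the next naïve value was 16.5 RPKM. The 18 h values of 10.4, 12.8 and 14.7 RPKM were above only that retina, and the 18 h median was 14.7 RPKM against 29.4. The value of 65.8 RPKM was in replicate 4, which had fewer than 8000 detected genes. Without the 4 such retinas the log2 difference from naïve was -0.81.

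Between 4 h and 18 h Gm15523 differed by -3.48 (SE 0.56) and had no overlap, with the lowest 18 h value 5.67 times the highest at 4 h, a pattern shared by 4.83% of the genes tested. For Gm29291 the same comparison was -0.69 (SE 0.73) with overlap. At this contrast 2.51% of genes were called higher at 4 h and 2.92% lower. At 2 weeks Gm15523 was at 13.0, 16.1, 16.7, 17.7, 22.1, 29.0 and 129.6 RPKM (-0.29 against naïve, SE 0.45, adjusted p = 1.0 in limma). Asb2, which encodes part of a ubiquitin ligase, shares no exonic base with Gm15523. Its medians were 3.32, 1.27, 2.38 and 3.65 RPKM, and its difference at 4 h was -1.11 (adjusted p = 0.21).

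The RefSeq promoter of Gm15523 is shown because this gene was below all naïve retinas at 4 h and inside their range at 18 h, and its window holds 2 matches to the core motif of PU.1, the factor encoded by Spi1 that defines macrophages. The window, chr12:103336623-103336922 on the plus strand of GRCm38, runs from 250 bases before to 50 after the RefSeq start, which is 33 bases from the GENCODE start. The capitals mark the core, GAGGAA on the minus strand and so read as TTCCTC here, at 72 and 53 bases before the start.
Gm15523 promoter: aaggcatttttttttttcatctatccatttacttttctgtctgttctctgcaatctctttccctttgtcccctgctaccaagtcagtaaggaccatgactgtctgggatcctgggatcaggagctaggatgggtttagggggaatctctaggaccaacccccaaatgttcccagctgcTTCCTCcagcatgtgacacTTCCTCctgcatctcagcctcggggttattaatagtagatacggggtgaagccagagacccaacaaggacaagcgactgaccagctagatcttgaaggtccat

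The PU.1 core was present on one or other strand in 28.3% of the 32851 RefSeq promoters searched, so its presence is common. It was also found once in the window of Malat1 and not in that of Mir22hg. No match to the NF-kappa B consensus, to AP-1 (TGANTCA) or to the core of the interferon-stimulated response element was found in these 3 windows, and 4.51%, 7.81% and 3.44% of all promoters hold one. The RefSeq starts of Mir155hg and Mir17hg lie 9856 and 1511 bases from the GENCODE starts, inside the genes, so their windows were not described. Spi1 itself was at 46.2 RPKM in naïve retinas and 124.0 at 4 h (log2 difference 1.402, SE 0.64, adjusted p = 0.20 in limma).

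**Figure D4:**
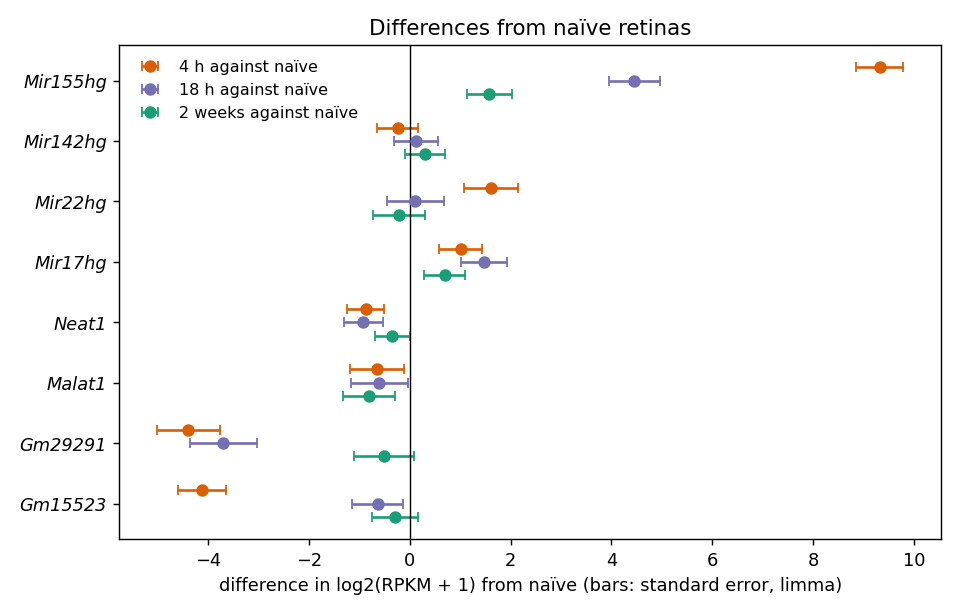
Difference in log2(RPKM + 1) from naïve retinas for the 8 genes in each of the 3 EIU groups, with bars for the SE from limma. Mir155hg stands at 9.32, 4.46 and 1.58, Gm29291 at -4.39, -3.69 and -0.51 and Gm15523 at -4.12, -0.63 and -0.29, and the 5 other genes lie between -0.92 and 1.62.

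At 4 h 3 of the 8 were called, the same 3 that had been selected on their change, and none of the 5 others passed at 4 h, 18 h or between these times. At 2 weeks none of the 8 was called by limma, 1 (Mir155hg) had an unadjusted p under 0.05, and over all genes 0.0076% were called and 2.87% had such a p. Over the 1325 annotated long noncoding RNAs tested, which include the 8, 3.55% were called higher and 5.96% lower at 4 h, and 0.83% and 3.17% at 18 h. Their median log2 difference was -0.24 at 4 h and -0.27 at 18 h, against -0.11 and -0.076 over all genes tested.

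A list of 30 tested long noncoding RNAs in general use, many of them hosts of small nucleolar RNAs and including Malat1 and Neat1, had 3 called higher and 1 lower at 4 h, against 3.68% and 4.39% of all genes, and 3 higher and none lower at 18 h, against 2.84% and 1.85%. At 4 h it had 3 higher and 2 lower without the 4 retinas of few detected genes, and with rescaling to equal summed RPKM 1 higher, Snhg15, and 3 lower, Snhg20, Snhg10 and Snhg3. Snhg15 rose at both times (2.93, SE 0.46, adjusted p = 3.1e-05, and 2.20, SE 0.48, adjusted p = 0.0048), from a median of 8.49 RPKM to 64.2 and 37.4. At 4 h every retina (lowest 40.8) was above every naïve one (highest 26.4), as for 1.65% of the genes tested. Snhg4 also rose at both times (1.02, adjusted p = 0.021, and 1.84, adjusted p = 0.00022), although its call at 4 h was lost without the 4 retinas of few detected genes, and Snhg12 at 4 h (1.63, adjusted p = 0.042). Gas5, an RNA that builds up when growth stops, rose at 18 h (1.34, SE 0.31, adjusted p = 0.0077). Snhg20 fell at 4 h from 66.2 to 24.8 RPKM (-1.51, SE 0.29, adjusted p = 0.00048) and was at 55.0 RPKM at 18 h.

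The genes with the most similar course over the 28 retinas were found by Pearson's r of log2(RPKM + 1), a description in which all points share the same groups and libraries. Mir155hg was closest to Il12b (r = 0.956), the activation marker gene Cd69 (0.955) and Tnfsf9 (0.932), the first and last of which encode cytokines. Gm29291 was closest to Gm10138 (0.935), the signalling regulator Rgs10 (0.922) and the microglial receptor gene Gpr34 (0.913), and Gm15523 to Hspb3 (0.945), Gcnt1 (0.888) and 1600010M07Rik (0.887). Mir22hg was closest to the cytokine receptor gene Csf2rb (0.828), Mif4gd (0.816) and Pwp1 (0.792), and Mir17hg to Rrp15 (0.743), Dynlt1a (0.714) and the translation factor gene Eif4e (0.708). Neat1 was closest to the growth factor receptor gene Igf1r (0.881), Fam134b (0.862) and the clock gene Per3 (0.846), and Malat1, after Gm37376, to Gcc2 (0.897) and Akap9 (0.853). For Mir142hg the highest were Zfyve16 (0.689), Rnaset2b (0.648) and Lyz2 (0.633).

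All 28 retinas had between 7510000 and 19700000 alignments and between 6552 and 11825 genes at an RPKM of at least 1, with 4 retinas under 8000 genes. All 10 microglial markers had a median of at least 1 RPKM in every group, and their sum had medians of 11160, 4789, 4133 and 11080 RPKM in naïve, 4 h, 18 h and 2-week retinas. Of these 10, 5 were called lower at 4 h and 7 at 18 h, against 4.39% and 1.85% of all genes tested. With rescaling to equal summed RPKM the counts were 8 and 7. By the study's methods the same number of bright cells was sorted from every retina. Its flow cytometry found the bright cells at 18 h to be specific to microglia, and their count did not differ significantly from naïve. In the bulk RNA values alone, a smaller share of a cell type and less RNA per cell cannot be told apart. The neutrophil genes Retnlg, Mpo and Ly6g had a median of 0 in all groups, and S100a8 and S100a9 in all but the 18 h group. Another gene of the neutrophil list had a median of at least 1 RPKM in every group. The list summed to medians of 16.9, 11.4, 10.98 and 20.1 RPKM in naïve, 4 h, 18 h and 2-week retinas. Lymphocyte markers summed to at most 0.237 RPKM in naïve and 4 h retinas and to 6.88 to 86.4 RPKM at 18 h, of which Nkg7, a gene of cytotoxic cells, had a median of 12.1, and the monocyte markers had a median sum of 0.249 in naïve retinas and 8.17 at 18 h. Blood and vessel genes had a median sum of 19.01 RPKM in naïve retinas and of 26.4, 11.3 and 17.2 in the 4 h, 18 h and 2-week groups. The part of other cells in the values at 18 h was not tested.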

How the data were processed

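Poly(A)-primed libraries (SMART-Seq v4, which does not mark strand) were made from sorted microglia of 28 single retinas. The deposited table holds gene-level RPKM made by the authors. The submitters' processing notes name bcl2fastq 2.20, STAR 2.5.3a, Partek and build mm10. By the study's methods, trimmed reads aligned with STAR were assigned to Ensembl transcripts by Partek's expectation-maximisation step, which divides reads shared between transcripts, and scaled to RPKM in Partek Genomics Suite. Alignment totals per retina (7510000 to 19700000) stand in a row of that table, but no read counts per gene were used, so counting error is not known. The authors' tables of differentially expressed genes hold their own comparisons (fold changes and p-values) and were not used.

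RPKM was taken to log2(RPKM + 1), so a difference understates the change of low genes. Genes were kept where 5 or more of the 28 retinas reached an RPKM of 1, and the 13164 that passed were fitted in limma 3.58.1 (R 4.3.3) with the 4 groups, no covariate and an intensity trend, with Benjamini-Hochberg adjustment over all genes and a call at an adjusted p of 0.05 or less with a log2 difference of at least 1. Within-experiment values come from the same model on 1 experiment. In simulated data (20 draws of 200 changed genes among 13164 for 4 h against naïve), 14.6%, 48.5%, 71.3% and 93.8% of genes with true log2 differences of 1, 1.5, 2 and 3 were called. Figures, sequences and descriptive values used Python 3.11.15, pandas 2.3.3, numpy 2.4.6 and matplotlib 3.10.9, with GENCODE and RefSeq annotation of GRCm38.

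The members and lists were chosen with earlier results of these data known. Named genes were the 8 members, the listed genes that were called, annotated neighbours and overlapping genes, and the 3 genes with the highest Pearson's r to each member. The whole class of annotated long noncoding RNAs was added after the data were seen. Ranks and overlap counts cover 13162 genes, since a pair of symbols occurred more than once. Alternatives were other pseudocounts, filters and scalings, experiment or eye side as a covariate, each experiment alone, the replicate number as a block, only the groups compared, and each retina left out.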

Additional observations from a re-analysis of the deposited data

Results flagged for a closer look

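Over the 32 sets of values formed by 8 genes in 4 groups, 3 held a retina far from the others of its group by Dixon's criterion, which chance alone meets in about 1 in 20 sets. Neat1 was at 7.21 RPKM in 2-week replicate 1, against 0.813 to 1.96 RPKM in the other 6 retinas. Gm15523 was at 130.0 RPKM in the same retina, against 12.98 to 29.0 RPKM. Gm29291 was listed at 0.0 in 18 h replicate 4, against 6.62 to 12.4 RPKM in the other 4. These 2 retinas had 6644 and 6969 genes at an RPKM of at least 1, both under 8000, and the part of the number of detected genes in these values was not tested.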

How the results depend on the processing

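At 4 h against naïve 1063 genes were called, at 18 h 618, between 4 h and 18 h 714, between naïve retinas of the 2 experiments 234 and in the 4 h interaction of time and experiment 13, all counts over all genes tested. With a pseudocount of 10 these became 416, 338, 458, 87 and 29. A pseudocount of 0.1 gave 120 in the naïve comparison and 0 in the interaction, and a filter at an RPKM of 5 gave 73 and 1. Experiment 1 alone gave 459 at 4 h, 232 at 18 h and 202 between them, and experiment 2 alone 165 at 18 h. Without the 4 retinas under 8000 detected genes, 1241 were called between 4 h and 18 h. Leaving out 1 retina gave 854 to 1186 at 4 h, 407 to 729 at 18 h, 473 to 835 between them, 11 to 1588 in the naïve comparison and 1 to 38 in the interaction. The count moved by over 1.5 times without 18 h replicate 1 (407) or 2 (410) at 18 h and without 4 h replicate 1 (473) between 4 h and 18 h. In the naïve comparison it did so without any of the 10 naïve retinas, 18 h replicate 4 (482) or 2-week replicate 1 (453), and was highest without naïve replicate 1. The interaction was highest without 4 h replicate 1. The cause was not tested.

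The signs of small differences of members turned. Mir142hg at 4 h was 0.029 with the replicate block and 0.012 in experiment 1, at 18 h -0.071 with rescaling to equal summed RPKM and -0.089 to 0.41 leaving out 1 retina, and at 2 weeks -0.051 in experiment 2. Mir22hg at 18 h was -0.066 in experiment 2, -0.087 with rescaling and -0.12 to 0.67 leaving out 1 retina, and at 2 weeks 0.12 in experiment 2 and -0.44 to 0.11 leaving out 1 retina. Mir17hg at 2 weeks was -0.22 in experiment 2, and Gm29291 between 4 h and 18 h was 0.26 there. No member called by limma lost its direction. Mir22hg at 4 h passed with a filter at 5 (adjusted p = 0.047), in experiment 2 (0.0017) and with quantile normalisation (0.0082), and Mir17hg at 18 h with eye side as a covariate (0.039). The median of all genes moved from -0.11 to -0.276 at 4 h and from -0.0761 to -0.26 at 18 h with rescaling.

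Over 34 same-numbered pairs of retinas the correlation of deviations ran from -0.329 to 0.698 and passed 0.1 in 15. Pairs with different numbers were not correlated for comparison, so these values cannot tell whether replicate numbers pair the retinas. With the replicate block 1076 genes were called at 4 h, 598 at 18 h, 1 at 2 weeks and 554 between 4 h and 18 h. The number of retinas, 1 retina at 18 h in experiment 2 and unknown read counts limit the precision.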
